A study of Mus musculus with 28 samples.

Results

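Imprinted genes that act on fetal growth were followed in whole lungs of newborn mice. The set is Igf2, Igf2r, H19, Dlk1, Meg3, Peg3, Cdkn1c, Grb10, Plagl1 and Mest, chosen by name, and each gene was read from the brightest row of the deposited table that carries its symbol alone. Of these 10 genes 9 had such a row, out of 22180 genes tested. The single row that names H19 also names another gene, so H19 was not analysed here. Plagl1 had 2 rows of its own and the other measured genes 1.

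Lungs came from postnatal day 0 animals of 4 genotypes, untreated or after N-acetyl cysteine (NAC, an antioxidant and glutathione precursor) given to the mother through pregnancy at 0.5%. The genotypes were Control, HRas-KO (deficient in the small GTPase HRAS), NRas-KO (deficient in NRAS) and DKO (deficient in both). Without NAC there were 5 DKO animals and 3 of each other genotype. With NAC there were 4 Control and 4 DKO animals and 3 of each single knockout. Each animal had 1 array. Per the series title, DKO mice die of respiratory distress, and the comparisons ask how loss of both GTPases and antenatal NAC change the lung. Strain, sex, how the alleles were made and whether the loss is limited to a cell type are not given in the sources used here.

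In imprinted genes the copy from one parent is silenced, and the copies are told apart by DNA methylation set in the germ line. Many imprinted genes act on growth before birth: as a rule those expressed from the father's copy promote it and those expressed from the mother's copy restrain it. IGF2 is a fetal growth factor that signals through the IGF1 and insulin receptors, while IGF2R binds IGF2 and delivers it to lysosomes. DLK1 is a membrane protein of progenitor cells and MEG3 a long noncoding RNA from the same imprinted cluster. In the developing lung IGF2 and DLK1 belong to the fetal programme that fades after birth.

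Values are log2 values on the array scale, differences are log2 differences, and ± is the SD for a group level and the standard error for a difference. A gene is called where its p from a limma fit, adjusted by Benjamini-Hochberg across all 22180 genes, lies under 0.05. Lung identity was clear: all 6 epithelial markers, led by Sftpc (13.11 over all arrays), were brighter than at least 96% of genes. Nras was 8.07 or more on every array of the genotypes that keep it, and 7.40 to 7.80 in NRAS-deficient lungs, except on the array labelled DKO+NAC replicate 4 (8.08). DKO replicates 1 and 3 were the lowest 2 or highest 2 DKO arrays in several members. The start of the animal code in the sample titles may mark a litter or collection batch, though the labels do not say so. No code start occurred in both treatment arms, and none of the 3 in untreated DKO occurred in another group. An effect of NAC, or of DKO among untreated lungs, therefore cannot be told apart from such a batch. All animals of a NAC group may also share few mothers: the 3 HRas-KO+NAC arrays had 1 code start.

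Promoters are shown for the 4 members that passed a test in some comparison, with CG pairs marked because DNA methylation falls on them. Only promoter windows were searched, so the counts do not show where the methylation that imprints a gene lies. RefSeq's table (build GRCm38.p6) holds 15 promoters for 8 of the members. The lines give the 250 bases before the start, 5′ to 3′ on the gene's strand, with each CG in capitals, and for Igf2 the starts numbered 3 and 4 of its 4.
Igf2 start 3, chr7:142658805-142659054, minus strand: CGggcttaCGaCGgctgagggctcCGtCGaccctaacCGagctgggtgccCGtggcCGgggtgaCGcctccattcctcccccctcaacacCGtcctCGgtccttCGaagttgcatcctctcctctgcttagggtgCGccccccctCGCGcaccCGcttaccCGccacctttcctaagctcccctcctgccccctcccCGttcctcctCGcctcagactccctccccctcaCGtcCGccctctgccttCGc
Igf2 start 4, chr7:142657497-142657746, minus strand: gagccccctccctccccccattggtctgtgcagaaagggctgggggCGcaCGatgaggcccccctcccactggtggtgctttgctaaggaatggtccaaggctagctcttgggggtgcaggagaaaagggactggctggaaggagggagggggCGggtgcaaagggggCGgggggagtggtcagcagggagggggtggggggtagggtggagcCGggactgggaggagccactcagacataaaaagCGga
Igf2r, chr17:12769707-12769956, minus strand: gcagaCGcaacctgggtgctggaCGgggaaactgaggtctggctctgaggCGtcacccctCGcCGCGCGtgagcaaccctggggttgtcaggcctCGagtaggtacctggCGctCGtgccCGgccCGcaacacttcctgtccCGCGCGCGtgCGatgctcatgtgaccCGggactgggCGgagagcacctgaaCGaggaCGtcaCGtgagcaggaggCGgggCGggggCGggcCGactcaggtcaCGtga
Dlk1, chr12:109452573-109452822, plus strand: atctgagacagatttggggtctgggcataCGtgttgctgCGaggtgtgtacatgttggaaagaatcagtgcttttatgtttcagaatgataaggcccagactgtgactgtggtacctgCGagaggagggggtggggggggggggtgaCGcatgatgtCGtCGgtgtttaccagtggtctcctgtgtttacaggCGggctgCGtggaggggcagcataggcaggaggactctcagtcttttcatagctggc
Peg3, chr7:6730420-6730669, minus strand: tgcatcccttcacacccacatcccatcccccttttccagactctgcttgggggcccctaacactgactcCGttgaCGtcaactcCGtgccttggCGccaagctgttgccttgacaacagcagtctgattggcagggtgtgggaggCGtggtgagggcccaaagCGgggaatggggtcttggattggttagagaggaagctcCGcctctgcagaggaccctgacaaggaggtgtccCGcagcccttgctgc

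The windows searched were 300 bases long, 250 before and 50 after the start. They differed widely in CG content. Igf2r held 34 CG pairs, more than 92.3% of all 32851 promoters, and the 4 Igf2 starts held 2, 14, 24 and 7. Peg3 held 13 and Dlk1 9, against a median of 7 over all promoters. TGCCGC, the hexamer read by the imprint-keeping factor ZFP57, was searched on both strands. It was found in 6 of the 15 member promoters (1 start each of Grb10, Igf2, Meg3 and Plagl1, and a pair of overlapping Mest starts) and in 11.6% of all promoters. The core motif of the insulator protein CTCF was in 0 of 15 and in 0.0365% of all. The arrays measure no methylation and do not tell the 4 Igf2 starts apart.

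Igf2, the ligand, was lower after NAC in Control lungs and in both single knockouts, with differences between -0.56 and -0.45. The individual values in untreated lungs were 9.37, 9.48 and 9.21 in Control, 9.38, 9.33 and 9.35 in HRas-KO and 9.33, 9.53 and 9.41 in NRas-KO. After NAC they were 8.88, 8.94, 8.50 and 8.87 in Control, 8.81, 9.08 and 8.82 in HRas-KO and 8.93, 8.80 and 8.94 in NRas-KO. In these 3 genotypes every NAC array lay below every untreated array, which held for 10.1%, 14.9% and 10.5% of all genes in turn. The difference was -0.56 ± 0.13 in Control (adjusted p = 0.0038), which leaves 67.9% of the untreated level. It was -0.45 ± 0.13 in HRas-KO (adjusted p = 0.028) and -0.53 ± 0.13 in NRas-KO (adjusted p = 0.017). The Control call held without any 1 of the 7 arrays. The HRas-KO call was lost without any 1 of the HRas-KO arrays or without HRas-KO+NAC replicate 1 or 3 (adjusted p = 0.067 to 0.12). In NRas-KO it took NRas-KO replicate 2 (0.084) or NRas-KO+NAC replicate 2 (0.074) to end the call.

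In DKO lungs the NAC difference of Igf2 did not pass. The untreated DKO arrays read 8.97, 8.998, 8.52, 9.20 and 9.16, all below every array of the other untreated genotypes, and the DKO+NAC arrays read 8.85, 8.92, 8.76 and 8.75. Lying below every array held for 4.03% of all genes against Control, 5.63% against HRas-KO and 4.82% against NRas-KO. The share against these genotypes together was not computed. The untreated DKO level passed neither against Control (adjusted p = 0.071) nor against HRas-KO (adjusted p = 0.058), and without DKO replicates 1 and 3 the difference from Control was -0.24 (adjusted p = 0.3). The NAC difference in DKO was -0.15 ± 0.11 (95% interval -0.37 to 0.08, adjusted p = 0.45), and the arrays overlapped. The test of whether NAC changes the DKO effect gave 0.41 ± 0.17 (unadjusted p = 0.021, adjusted p = 0.28), so a smaller NAC difference in DKO was not established. By mean level the order ran from NRas-KO (9.42 ± 0.10) through Control (9.35 ± 0.13), HRas-KO (9.35 ± 0.02), DKO (8.97 ± 0.27) and the NAC groups of HRas-KO (8.90 ± 0.15), NRas-KO (8.89 ± 0.08) and DKO (8.82 ± 0.08) to Control+NAC (8.80 ± 0.20). Between neighbours in this order the arrays overlapped, except between HRas-KO and DKO.

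**Figure D1:**
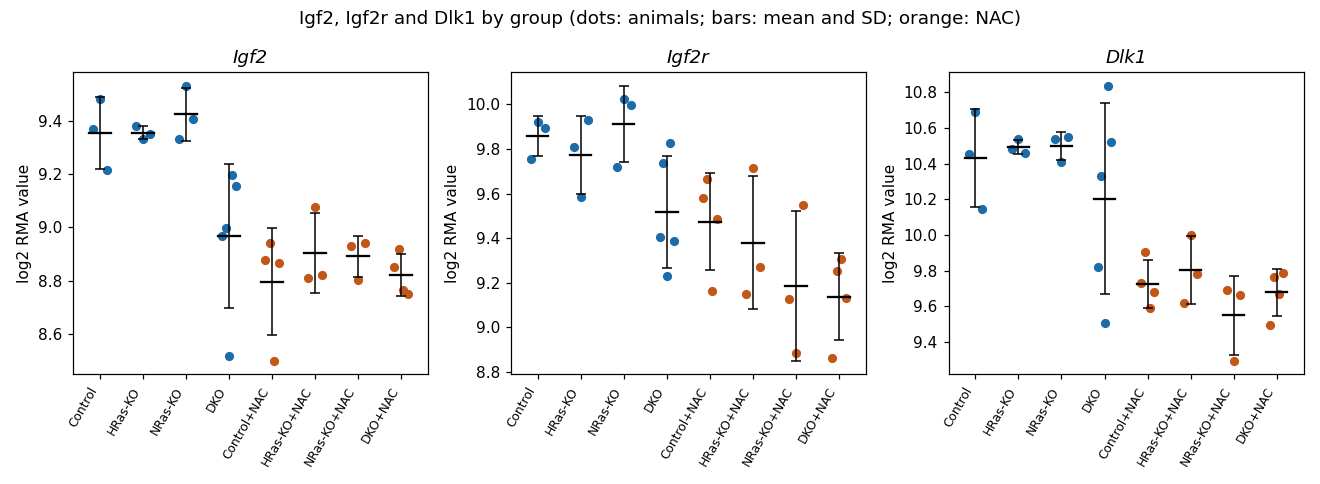
Log2 RMA values of Igf2, Igf2r and Dlk1 by group, 1 dot per animal (blue untreated, orange NAC), with the group mean and SD as bars. For Igf2 the DKO dots lie below those of the other untreated genotypes, and for Dlk1 the NAC dots lie at 10.001 or lower.

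Igf2r, the receptor that clears IGF2, was lower after NAC in NRas-KO lungs. Its values fell from 9.72, 10.02 and 9.997 to 9.13, 8.89 and 9.55, without overlap, a difference of -0.73 ± 0.18 (adjusted p = 0.013). Leaving out NRas-KO replicate 2 ended this call (adjusted p = 0.064), as did leaving out NRas-KO+NAC replicate 2 (0.092). In Control the values were 9.75, 9.92 and 9.89 untreated and 9.58, 9.66, 9.17 and 9.49 with NAC. The Control difference of -0.38 ± 0.17 (adjusted p = 0.13) did not pass although the arrays did not overlap. Such a lack of overlap in the lower direction held for 10.1% of all genes in Control and 10.5% in NRas-KO. HRas-KO read 9.81, 9.58 and 9.93 untreated and 9.15, 9.72 and 9.27 with NAC, which overlap (-0.39 ± 0.18, adjusted p = 0.16). DKO read 9.41, 9.74, 9.23, 9.82 and 9.39 untreated and 8.87, 9.25, 9.31 and 9.13 with NAC. That difference, -0.38 ± 0.14 (adjusted p = 0.09), passed without DKO replicate 3 (-0.45, adjusted p = 0.046) or without both DKO replicates 1 and 3 (-0.51 ± 0.16, adjusted p = 0.039). Whether the NRas-KO difference exceeds that of the other genotypes was not tested.

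Dlk1 was called lower after NAC in all 4 genotypes, with the DKO call close to the threshold. Control lungs read 10.46, 10.69 and 10.15 untreated and 9.73, 9.91, 9.59 and 9.68 with NAC, HRas-KO lungs 10.48, 10.54 and 10.46 against 9.62, 10.001 and 9.78, and NRas-KO lungs 10.54, 10.41 and 10.55 against 9.69, 9.29 and 9.66. These 3 pairs of groups did not overlap, which in the lower direction held for 10.1%, 14.9% and 10.5% of all genes in turn. The differences were -0.71 ± 0.20 in Control (adjusted p = 0.018), -0.69 ± 0.21 in HRas-KO (adjusted p = 0.033) and -0.95 ± 0.21 in NRas-KO (adjusted p = 0.0074), where 51.8% of the untreated level remained. In DKO the values were 9.82, 10.33, 9.51, 10.84 and 10.52 untreated and 9.49, 9.76, 9.67 and 9.79 with NAC. DKO replicates 1 and 3 were the low ones, and replicate 3 lay within the NAC range. The DKO difference was -0.53 ± 0.17 (adjusted p = 0.048) and, without both of these arrays, -0.89 ± 0.13 (adjusted p = 0.00014).

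The NRas-KO call for Dlk1 held without any 1 array. The Control call was lost without Control replicate 1 or 2 (adjusted p = 0.065 and 0.13) or Control+NAC replicate 3 (0.05). The HRas-KO call was lost without any 1 HRas-KO array or without HRas-KO+NAC replicate 1 or 3 (0.069 to 0.14). The DKO call was lost without DKO replicate 2, 4 or 5 or any 1 DKO+NAC array (0.059 to 0.15), among them the array labelled DKO+NAC replicate 4 (0.059). It was also lost after quantile normalization (-0.50, adjusted p = 0.057), with all rows of the table tested (0.066), with a replicate block (-0.45, adjusted p = 0.089) and in a fit on the DKO and DKO+NAC arrays alone (0.2). With all rows tested the HRas-KO call was lost too (0.051). Among all genes 301 (1.36%) were called lower in all 4 NAC comparisons, Dlk1 among them, and 639 (2.88%) in at least 3, with Igf2 added. The 4 comparisons use different animals, although the NAC arrays share code starts across genotypes. Igf2, Igf2r and Dlk1 each lay below the untreated median on all 14 NAC arrays. The share of all genes with this pattern was not computed.

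Meg3, the noncoding partner of Dlk1, was called in 0 of the 4 NAC comparisons. Its differences were -0.51 ± 0.22 in Control, -0.59 ± 0.23 and -0.62 ± 0.23 in the HRas and NRas knockouts and -0.12 ± 0.19 in DKO (adjusted p = 0.11 to 0.77). Its row was the dimmest of the 9, with a mean of 6.63, and its arrays varied most within groups, with an SD of 0.31. In HRas-KO (6.64, 6.65 and 7.35 against 6.03, 6.35 and 6.50) and NRas-KO (6.85, 7.11 and 6.66 against 5.94, 6.37 and 6.44) the untreated and NAC arrays did not overlap. In the lower direction this held for 14.9% and 10.5% of all genes in turn. The Control difference passed without Control+NAC replicate 1, the array at 7.05 (-0.68, adjusted p = 0.045).

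Peg3, a zinc finger protein expressed from the father's copy, was called lower after NAC in DKO lungs. The DKO arrays read 11.88, 11.01, 11.69, 11.00 and 11.39 and the DKO+NAC arrays 11.23, 10.72, 10.54 and 10.73, a difference of -0.59 ± 0.18 (adjusted p = 0.034). The groups overlapped, and DKO replicates 1 and 3 were the highest. Of 10 skeletal muscle markers 2 were called lower in DKO+NAC against DKO. The mean over that list, relative to each gene's mean, was 1.34, -0.14, 0.37, -0.20 and 0.82 in DKO replicates 1 to 5 and -0.43 to -0.21 in DKO+NAC. DKO replicates 1, 3 and 5 were thus the 3 highest DKO arrays for both. Over the 28 arrays, as deviations from group means, Peg3 had a Pearson r of 0.45 with the skeletal muscle list, 0.54 with heart muscle, -0.70 with proliferation markers and -0.61 with endothelium. The part of these lists in the Peg3 difference was not tested. Without DKO replicates 1 and 3 the Peg3 difference was -0.33 ± 0.19 (adjusted p = 0.29), and with skeletal and heart muscle lists as covariates it was -0.18 (adjusted p = 0.64). It was also lost without DKO replicate 5 (adjusted p = 0.056) or DKO+NAC replicate 2, 3 or 4 (0.073 to 0.12).

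In Control, Peg3 read 11.12, 10.82 and 11.12 untreated and 10.37, 10.77, 10.70 and 10.48 with NAC (-0.44 ± 0.21, adjusted p = 0.17). In HRas-KO it read 11.32, 11.15 and 10.82 against 10.83, 10.43 and 10.34 (-0.56 ± 0.22, adjusted p = 0.11). In NRas-KO it read 10.95, 10.68 and 10.46 against 10.42, 11.20 and 10.58 (0.04 ± 0.22, adjusted p = 0.96). The estimates were below 0 in 3 genotypes and near 0 in NRas-KO. The NRas-KO+NAC array at 11.20 shared its code start (T195) with the DKO+NAC array at 11.23. On NAC arrays of the other code starts Peg3 read 10.83 or lower. The part of the code start in the NRas-KO estimate was not tested. Of differences between genotypes in the NAC effect, that of DKO and Control was tested (-0.15 ± 0.28, adjusted p = 0.87).

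Grb10 and Cdkn1c, both restraints on growth, did not pass in any NAC comparison. Grb10, an adaptor that dampens insulin and IGF1 receptor signalling, read 9.57, 9.47 and 9.71 in Control and 9.93, 9.91, 9.83 and 9.65 in Control+NAC. Its difference was 0.25 ± 0.10 there (adjusted p = 0.097), 0.12 ± 0.09 in DKO, 0.20 ± 0.11 in HRas-KO and 0.02 ± 0.11 in NRas-KO. Of the 14 NAC arrays 2 lay below the untreated median of Grb10, and 7 exceeded every untreated array, without a count over all genes to set beside it. Cdkn1c, a cyclin-dependent kinase inhibitor, differed by 0.24 ± 0.14 in Control, 0.07 ± 0.12 in DKO, 0.18 ± 0.15 in HRas-KO and -0.20 ± 0.15 in NRas-KO (adjusted p = 0.29 to 0.79).

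Mest, a fetal gene of the hydrolase family, was the brightest member (11.22 over all arrays, above 99.6% of genes). It ranged from 10.80 to 11.41 untreated and from 10.62 to 11.54 with NAC, with differences of -0.03 to 0.22 (adjusted p = 0.47 to 0.96). Plagl1, a zinc finger transcription factor, ranged from 9.04 to 9.63 untreated and 9.07 to 9.61 with NAC, and its differences were -0.06 to 0.06 (adjusted p = 0.81 to 0.88). Their 95% intervals reached at most 0.60 for Mest and 0.34 for Plagl1, so larger rises lie outside them.

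**Figure D2:**
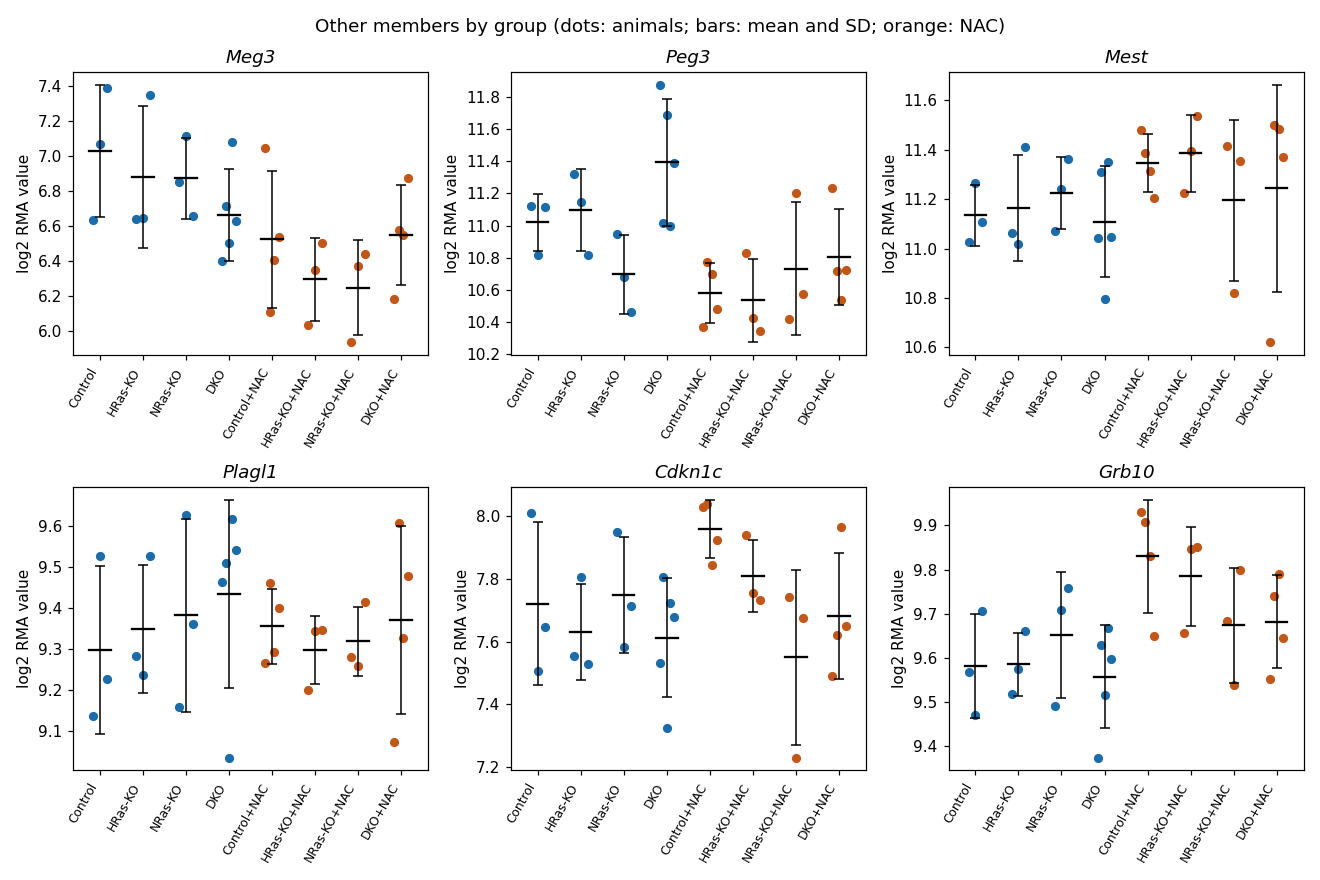
Log2 RMA values of Meg3, Peg3, Mest, Plagl1, Cdkn1c and Grb10 by group, 1 dot per animal (blue untreated, orange NAC), with mean and SD. The untreated and NAC dots of each genotype overlap for Mest, Plagl1 and Cdkn1c, and Peg3 is highest in DKO replicates 1 and 3 (11.88 and 11.69).

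By count, 2 of 9 members were called lower after NAC in Control (Igf2 and Dlk1), 2 in HRas-KO (again Igf2 and Dlk1), 3 in NRas-KO (Igf2, Igf2r and Dlk1) and 2 in DKO (Dlk1 and Peg3), and 0 were called higher. Among all genes the shares called lower were 5.68%, 5.1%, 3.56% and 6.46% in that order, and those called higher 7.86%, 6.73%, 2.86% and 5.74%. For DKO, centring each array on its median moved the share of called genes that were higher from 47% to 35.4%. Without NRas-KO replicate 2 the NRas-KO count was 1, and without DKO+NAC replicate 4 the DKO count was 0. The members' median difference was -0.38, -0.39, -0.20 and -0.12, against 0.02, 0.02, 0.03 and 0.02 over all genes.

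**Figure D3:**
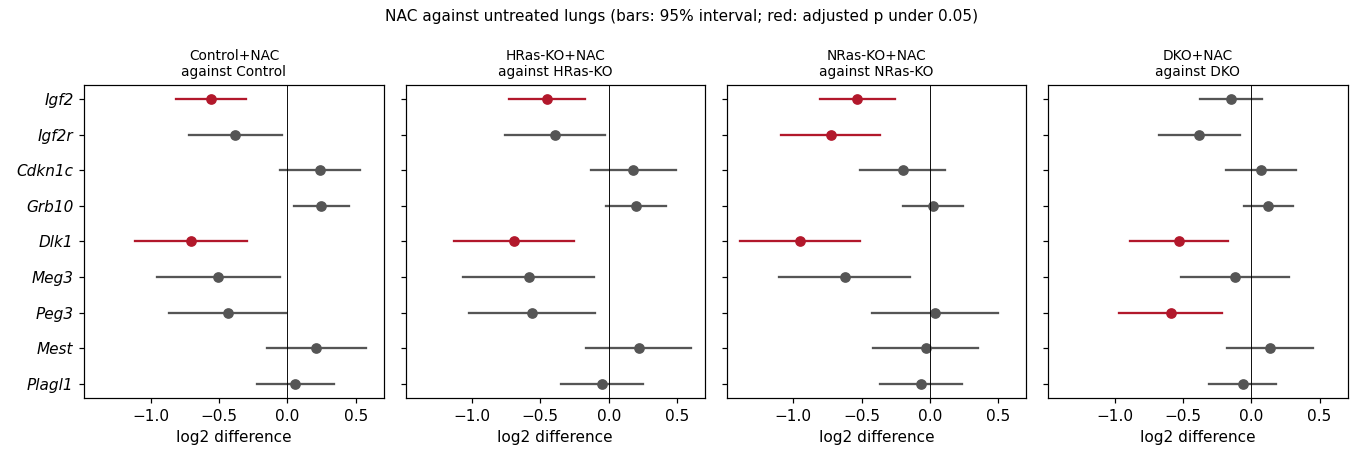
Log2 differences between NAC and untreated lungs (points) with 95% intervals (bars) for each member in the 4 genotypes, red where the adjusted p was under 0.05. Igf2 is red in 3 panels, Dlk1 in 4, Igf2r in NRas-KO and Peg3 in DKO.

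Because each array holds whole lung, fewer cells of a type and less RNA per cell cannot be told apart. Epithelial markers averaged 0.14 in Control and -0.12 in Control+NAC relative to each gene's mean, and 0.05 and -0.08 in DKO and DKO+NAC. In HRas-KO they averaged 0.21 and -0.16 and in NRas-KO 0.08 and -0.08. Of these 6 markers 2 were called lower after NAC in Control, 1 in DKO, 2 in HRas-KO and 0 in NRas-KO. Mesenchyme and fibroblast markers averaged 0.10 and -0.07 in the Control groups, 0.19 and -0.24 in DKO, 0.11 and -0.14 in HRas-KO and 0.28 and -0.25 in NRas-KO. Of the 6 mesenchymal markers 1 was called lower after NAC in Control, 3 in DKO, 1 in HRas-KO and 2 in NRas-KO, and 1 was called higher in DKO. Heart muscle markers were also lower, 0.19 and -0.31 in Control and -0.01 and -0.61 in DKO. In HRas-KO they averaged 0.89 and 0.22 and in NRas-KO 0.16 and -0.21. Of these 7 markers 2 were called lower after NAC in Control, 4 in DKO, 1 in HRas-KO and 1 in NRas-KO. Endothelial markers averaged 0.08 and -0.05 in Control, -0.02 and -0.09 in DKO, 0.11 and 0.02 in HRas-KO and 0.09 and -0.07 in NRas-KO. Of these 5 markers 1 was called lower after NAC in Control, 2 in DKO, 0 in HRas-KO and 1 in NRas-KO, and 1 was called higher in DKO. The 4 proliferation markers averaged -0.16 and 0.44 in Control, -0.08 and -0.15 in DKO, -0.18 and 0.27 in HRas-KO and -0.02 and -0.16 in NRas-KO, and 0 of them passed in any NAC comparison. Skin markers were high in NRas-KO replicates 2 and 3 (2.46 and 1.28) and at 0.02 or below on the other 26 arrays. Liver markers averaged 0.20 and -0.43 in Control and 0.64 and 0.04 in DKO. They averaged -0.41 and -0.12 in HRas-KO and 0.36 and -0.56 in NRas-KO, and 0 of 5 passed in any NAC comparison. The 1 measured erythroid marker, Slc4a1, was called lower after NAC in DKO (-0.97 ± 0.27, adjusted p = 0.017). The part of these tissues in the members' differences was not tested. The fit with muscle lists as covariates cannot decide it, because the list means themselves differed between groups (skeletal muscle 0.44 in DKO and -0.28 in DKO+NAC). Skeletal muscle markers averaged 0.15 and -0.32 in Control and -0.09 and -0.17 in HRas-KO. In NRas-KO they averaged 0.37 and -0.18, with NRas-KO replicate 2 at 1.18.

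Between genotypes without NAC, DKO differed from Control in 0 of 9 members at the threshold (3.83% of all genes were called, and 2 members had an unadjusted p under 0.05). Igf2 was nearest, with -0.39 ± 0.12 (95% interval -0.63 to -0.14, adjusted p = 0.071), and its arrays did not overlap, which held for 4.03% of genes in the lower direction. It passed without DKO replicate 4 (-0.44, adjusted p = 0.039) and was -0.24 ± 0.11 (adjusted p = 0.3) without DKO replicates 1 and 3. Igf2r differed by -0.34 ± 0.16 (adjusted p = 0.29) and Peg3 by 0.37 ± 0.20 (adjusted p = 0.38). Against HRas-KO, 0 of 9 passed (5.63% of genes), with Igf2 at -0.39 ± 0.12 (adjusted p = 0.058) and again no overlap (5.63% of genes in the lower direction). Igf2 passed there without DKO replicate 4 (-0.44, adjusted p = 0.031) or 5 (-0.43, adjusted p = 0.045).

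Against NRas-KO 2 of 9 members passed, while 4.95% of all genes did. Igf2 was lower in DKO, by -0.46 ± 0.12 (adjusted p = 0.025), and Peg3 was higher, by 0.70 ± 0.20 (adjusted p = 0.041). For both the arrays of the groups did not overlap, which held for 4.82% of genes in the lower and 6.78% in the higher direction. Both were lost without DKO replicates 1 and 3 (Igf2 -0.31, adjusted p = 0.13, and Peg3 0.44, adjusted p = 0.27). Without NRas-KO replicate 2 the differences were -0.40 for Igf2 (adjusted p = 0.15) and 0.69 for Peg3 (adjusted p = 0.14), and without NRas-KO replicate 3 they were -0.46 (adjusted p = 0.074) and 0.58 (adjusted p = 0.2). Skin markers read 2.46 and 1.28 on these arrays. On NRas-KO replicate 2 the skeletal muscle list read 1.18 and the mesenchyme list 0.52, against -0.02 and 0.22 on NRas-KO replicate 3. The part of these tissues was not tested. With the code start as a random block both calls were lost as well (Igf2 -0.44, adjusted p = 0.058, and Peg3 0.65, adjusted p = 0.085). A fit on the arrays of these groups alone also lost both (adjusted p = 0.16 and 0.13). DKO replicate 3 also ended the Igf2 call (0.055), and DKO replicate 1, 3 or 5 the Peg3 call (0.069 to 0.11).

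DKO replicates 1 and 3 were the lowest 2 of the 5 DKO arrays in 7 of 9 members (Igf2, Dlk1, Meg3, Cdkn1c, Grb10, Plagl1 and Mest) and the highest 2 in Peg3. Among all genes they were the lowest 2 in 15.4% and the highest 2 in 15.6%. In Igf2, Plagl1 and Mest replicate 1 read 8.97, 9.47 and 11.044, close to the next array (8.998, 9.51 and 11.045). DKO replicates 1 and 3 were singled out after their values were seen, so these counts of ranks are a description. The endothelial marker mean of DKO replicate 3 was -0.33, the lowest in the group.

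In neither single knockout was a member called against Control: 0 of 9 passed in each, and 0 had an unadjusted p under 0.05. In the limma fit 0% of all genes were called. At an unadjusted p under 0.05 were 190 genes in HRas-KO and 231 in NRas-KO, where 1109 would be expected by chance. Nras itself (7.69 in NRas-KO, 8.24 in Control) was not called either. The absence of calls therefore does not show that the members are unchanged. For Igf2 the differences were 0.00 ± 0.13 in HRas-KO (95% interval -0.28 to 0.28) and 0.07 ± 0.13 in NRas-KO (-0.21 to 0.34). HRas-KO and Control shared 2 code starts, and within them the HRas-KO minus Control difference of Igf2 was -0.04 and 0.00. The test for a departure from additivity of both deletions called 0 members (0.225% of genes), with Igf2 at -0.45 ± 0.18 (adjusted p = 0.37) and Peg3 at 0.62 ± 0.30 (adjusted p = 0.52).

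Among NAC lungs 0 members and 0% of all genes were called in DKO, HRas-KO or NRas-KO against Control. At an unadjusted p under 0.05 were 2, 0 and 1 members, and 2116, 1408 and 2321 genes, with 1109 genes expected by chance in each. Igf2 read 8.82 ± 0.08 in DKO+NAC and 8.80 ± 0.20 in Control+NAC, a difference of 0.02 ± 0.12 (95% interval -0.21 to 0.26). Cdkn1c was 7.55 ± 0.28 in NRas-KO+NAC against 7.96 ± 0.09 in Control+NAC, without overlap (4.09% of genes), a difference of -0.41 ± 0.14 that did not pass (adjusted p = 0.31). Igf2r was -0.34 ± 0.15 in DKO+NAC (adjusted p = 0.49). NAC changed the DKO effect in 0 members (0.388% of genes).

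**Figure D4:**
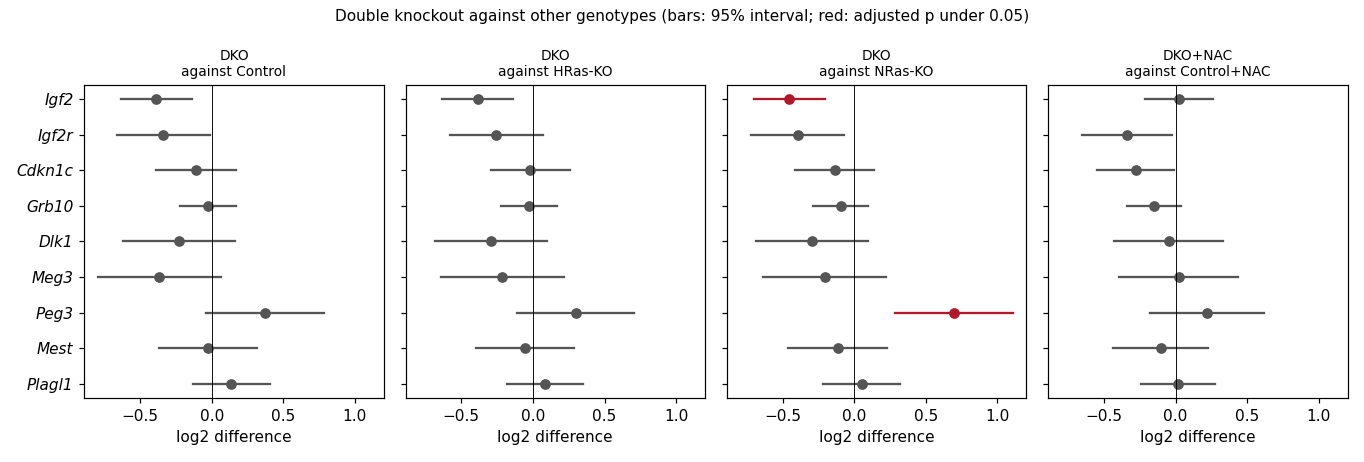
Log2 differences of DKO against Control, HRas-KO and NRas-KO, and of DKO+NAC against Control+NAC (points) with 95% intervals (bars), red where the adjusted p was under 0.05. Igf2 lies between -0.46 and -0.39 in the 3 untreated panels and at 0.02 with NAC.

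Other imprinted genes were read from a list of 50, of which 44 were measured. Whether each is imprinted in the lung was not tested, because the arrays do not tell the parental copies apart. In DKO against Control 4 were higher and 1 lower, while 2.48% of all genes were higher and 1.35% lower (64.7% of the called genes were higher, or 54.5% after quantile normalization again). They were Zdbf2 (0.81 ± 0.19, adjusted p = 0.013), Copg2 (0.70 ± 0.18, adjusted p = 0.032), Usp29 (0.40 ± 0.11, adjusted p = 0.033), Inpp5f (0.39 ± 0.09, adjusted p = 0.016) and Ppp1r9a (-0.58 ± 0.14, adjusted p = 0.02). Copg2 neighbours Mest, which differed by -0.02 ± 0.17, and Usp29 neighbours Peg3, which differed by 0.37 ± 0.20. Without DKO replicates 1 and 3 the count was 4 higher (Copg2, Usp29, Zdbf2 and the matrix proteoglycan Dcn) and 0 lower. The list's median difference was 0.03, against 0.02 over all genes.

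After NAC 4 of the 44 other imprinted genes were called higher and 3 lower in Control, 2 and 8 in DKO, 2 and 2 in HRas-KO, and 1 and 1 in NRas-KO. Of all genes 7.86% were called higher and 5.68% lower in Control, 5.74% and 6.46% in DKO, 6.73% and 5.1% in HRas-KO, and 2.86% and 3.56% in NRas-KO. Inpp5f, an inositol phosphatase, rose in Control (0.63 ± 0.10, adjusted p = 0.00013), HRas-KO (0.46 ± 0.10, adjusted p = 0.0046) and NRas-KO (0.38 ± 0.10, adjusted p = 0.026). H13, a signal peptide peptidase, fell in Control (-0.34 ± 0.08, adjusted p = 0.008), HRas-KO (-0.28 ± 0.09, adjusted p = 0.04) and DKO (-0.37 ± 0.07, adjusted p = 0.0016). In DKO the lowered genes included Dcn (-1.01 ± 0.22, adjusted p = 0.0034), which is also a fibroblast marker, and Gab1, an adaptor of growth factor receptors (-0.35 ± 0.10, adjusted p = 0.017). Ube3a, a ubiquitin ligase, rose in Control (0.68 ± 0.17, adjusted p = 0.009) and DKO (0.62 ± 0.15, adjusted p = 0.0073). Without DKO+NAC replicate 4 the DKO counts were 2 and 6, and without NRas-KO replicate 2 the NRas-KO counts were 0 and 1 (Inpp5f adjusted p = 0.052).

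The wider IGF pathway was read from a list of 19 genes, of which 17 were measured. Igf1r, the receptor through which IGF2 signals, fell after NAC in every genotype: -0.49 ± 0.14 in Control (adjusted p = 0.016), -0.55 ± 0.14 in HRas-KO (adjusted p = 0.012), -0.53 ± 0.14 in NRas-KO (adjusted p = 0.026) and -0.53 ± 0.12 in DKO (adjusted p = 0.0036). Leaving out NRas-KO replicate 2 ended the Igf1r call there (-0.39, adjusted p = 0.18). The insulin receptor substrate Irs2 fell in Control (-0.90 ± 0.18, adjusted p = 0.0014), NRas-KO (-0.92 ± 0.19, adjusted p = 0.0039) and DKO (-0.50 ± 0.16, adjusted p = 0.035). Irs1 fell in HRas-KO (-0.55 ± 0.17, adjusted p = 0.032) and NRas-KO (-0.63 ± 0.17, adjusted p = 0.022). Igf1, the other ligand, differed by -0.11 to 0.08 and passed in none of the 4.

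By count, 1 IGF pathway gene rose and 2 fell in Control, 1 and 7 in DKO, 0 and 2 in HRas-KO and 0 and 4 in NRas-KO, of 17 measured. The shares of all genes called higher and lower were 7.86% and 5.68% in Control, 5.74% and 6.46% in DKO, 6.73% and 5.1% in HRas-KO, and 2.86% and 3.56% in NRas-KO. The list's median difference was -0.18, -0.46, -0.13 and -0.20 in that order, against 0.02, 0.02, 0.02 and 0.03 over all genes. In DKO the binding proteins Igfbp7 (-0.77 ± 0.13, adjusted p = 0.00028), Igfbp2 (-0.46 ± 0.11, adjusted p = 0.007), Igfbp4 and Igfbp5 fell, and Igfbp6 rose (0.49 ± 0.12, adjusted p = 0.0064). Pappa, the protease that frees IGFs from binding proteins, fell by 1.14 ± 0.26 there (adjusted p = 0.0044) and was higher in untreated DKO than in Control (1.22 ± 0.28, adjusted p = 0.015). Both values rest on DKO replicates 1 and 3: without them Pappa was called in neither comparison, and the DKO counts after NAC were 1 and 4. Against Control, DKO had 1 pathway gene higher (Pappa) and 1 lower (Igfbp6, -0.50 ± 0.13, adjusted p = 0.025), and without those arrays 1 higher, Igfbp7 (0.54 ± 0.14, adjusted p = 0.033). Of all genes 2.48% were higher and 1.35% lower in DKO against Control. Without NRas-KO replicate 2 the NRas-KO counts after NAC were 0 and 2.

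**Figure D5:**
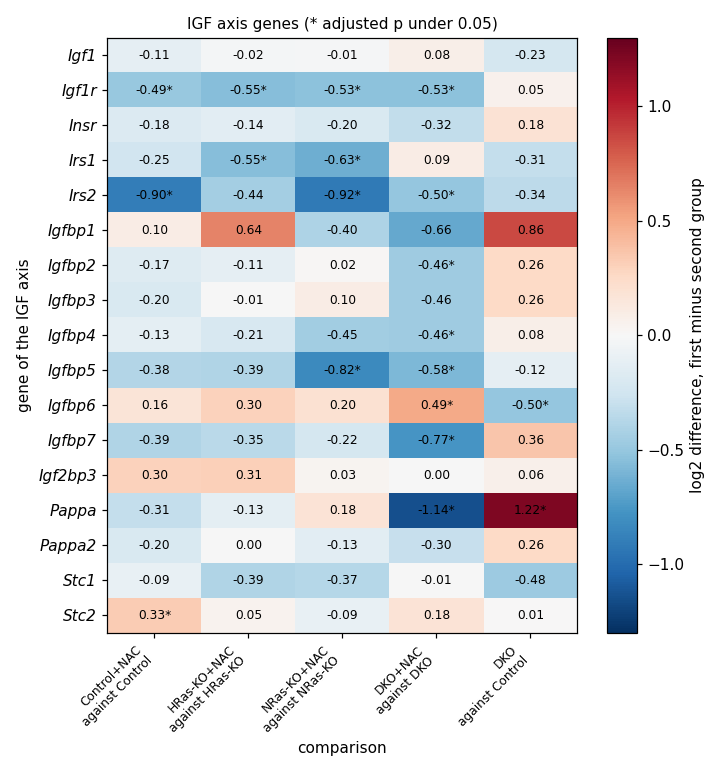
Log2 differences of 17 IGF pathway genes in the 4 NAC comparisons and in DKO against Control, printed in each cell and coloured by size, with an asterisk where the adjusted p was under 0.05. Igf1r carries an asterisk in all 4 NAC columns, at -0.55 to -0.49.

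Within groups, members varied together to different degrees. Over the 28 arrays, as deviations from group means, Igf2 followed Dlk1 with a Pearson r of 0.78 and Igf2r with 0.62. Peg3 ran against Mest (r = -0.84), Igf2r (-0.68) and Dlk1 (-0.64). Dlk1 and Meg3, of one imprinted cluster, had an r of 0.21. The genes with the most similar pattern were Ubap2 (0.80) and Dlk1 for Igf2, Nisch (0.91) and Fasn (0.87) for Igf2r, Fbln1 (0.93) and Arsb (0.92) for Dlk1, and Dhh (0.91) and Pde3a (0.89) for Peg3. Endothelial markers followed Dlk1 (r = 0.78) and Igf2 (0.77), with an r of -0.61 for Peg3. Proliferation markers followed Mest (r = 0.77) and Grb10 (0.73), with an r of -0.70 for Peg3. Mesothelial markers followed Cdkn1c (r = 0.72) and Dlk1 (0.63). These values describe arrays that share batches and tissue composition, and DKO replicates 1 and 3 add to their spread.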

How the data were processed

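Whole-lung RNA of 28 newborn mice was hybridised to 1-colour arrays, 1 animal each. The authors' deposited values are log2 values, for which the submitters' processing notes name RMA and affy; versions and the array annotation build are not given in the sources used here. Groups follow each sample's own labels. A shared treatment note names only 3 samples as treated, while sample labels assign NAC to 14 arrays; the titles of the 3 HRas-KO+NAC arrays omit it. The HRas-KO labels could not be checked on Hras, not analysed here.

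Of 41345 rows, 23521 carry 1 gene symbol, and the brightest row stood for each of 22180 genes. A mean per group (8 groups) was fitted over all arrays in R 4.3.3 with limma 3.58.1 (lmFit, eBayes), with Benjamini-Hochberg adjustment over all genes, for 14 comparisons. All adjusted p-values come from limma. The number of arrays limits the precision. No arrays held identical values. Replicate numbers did not pair arrays (mean correlation of same-numbered arrays 0.021 over 37 pairs). For arrays of different groups with the same code start the mean was 0.15 over 28 pairs, against -0.035 over 117 pairs with other code starts. The main fit treated all arrays as independent.

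Members and lists were chosen with earlier results of these data known. All members are named in the text; from the other imprinted and IGF lists, called genes, at most 6 per comparison, not all of them printed; and for likeness the 2 most similar genes. Further genes named from lists as uncalled, and Igf1, were added after their values were seen. Alternatives covered the row per gene, all rows, a filter on the dimmest 40%, normalization, moderation, array weights, the arrays fitted, the replicate and code-start blocks, muscle covariates and each array left out. Leaving out DKO replicates 1 and 3 together, and fits of the lists without single arrays, were added after seeing the data. The code was tested on simulated data. H19 was not analysed here.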

Additional observations from a re-analysis of the deposited data

Results flagged for a closer look

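In groups of 4 or more arrays, 3 of 27 combinations of member and group had an array far from the others (chance gives about 1 in 20). Igf2 in Control+NAC replicate 3 was 8.5, with a gap of 0.829 of the group's range to the next array. Mest in DKO+NAC replicate 1 was 10.62 (0.851). The other array of its code start (T195), NRas-KO+NAC replicate 2, read 10.82, and NAC arrays of other code starts read 11.205 or more. Plagl1 in DKO replicate 3 was 9.04 (0.737).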

How the results depend on the processing

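Of 179 counts of called members under other settings, 160 stayed within 1.5 times of the value given, as did 90 of 116 with 1 array left out. DKO against Control called 1 member after quantile normalization again and 1 with the replicate block. DKO against HRas-KO called 1 with the mean of a gene's rows (Plagl1, 0.41), 1 without the dimmest 40% of rows, 1 after quantile normalization, 1 with array weights and 1 with the replicate block. DKO against NRas-KO called 1 with all rows tested, 1 after quantile normalization, 0 with only the arrays compared, 0 with the code start as a random block and 0 without DKO replicates 1 and 3. HRas-KO+NAC against HRas-KO called 1 with all rows tested. DKO+NAC against DKO called 0 after quantile normalization, 0 with only the arrays compared, 1 with all rows, 1 with the replicate block, 1 with the random block and 1 with muscle covariates. Plagl1 in DKO against HRas-KO went from 0.09 to -0.17 with muscle covariates. The cause of these shifts was not tested. Using all rows adds tests, and fitting only the arrays compared leaves fewer arrays and takes the spread from those groups alone. With 1 array left out, the count ranged from 0 to 1 for DKO against Control, 0 to 1 against HRas-KO and 0 to 2 against NRas-KO. For NAC it ranged from 1 to 3 in Control, from 0 to 2 in DKO, from 0 to 2 in HRas-KO and from 1 to 3 in NRas-KO. It stayed 0 in the other comparisons. Code start as a fixed block could be fitted for 5 comparisons. The number of arrays, 3 to 5 a group, limits what could be called.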
